A study of Rattus norvegicus with 2 samples.

Results

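The genes described here are 9 core genes of Notch signalling in cultured rat cortical neural stem cells, chosen by name out of 25399 genes in the deposited matrix. They comprise the receptors Notch1, Notch2 and Notch3, the ligands Dll1, Dll3 and Jag1, and the HES genes Hes1, Hes5 and Hes6. All 9 were found by symbol. The cells came from E14.5 (embryonic) Sprague-Dawley cortex and were grown with FGF2, a growth factor that holds them undifferentiated. The treated cells were given ZD7288 at 30 µM, which blocks hyperpolarisation-activated (HCN) channels, and the control cells were given vehicle. Both media held 0.2% DMSO and were replaced once, at 24 h of the 48 h of exposure. A sample label writes ZD2788; the name ZD7288 used here is that of the title and protocol.

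Notch receptors are cut after they bind a ligand on a neighbouring cell, and the freed intracellular part joins the DNA-binding protein RBPJ to switch on target genes. The HES proteins made from such targets repress proneural genes, which keeps cortical progenitors from turning into neurons, while cells that escape this repression make more Delta ligand. Hes1 and Hes5 are such targets in cortical progenitors. Hes6 is a member of the same family that in mouse counteracts Hes1 and is not itself induced by Notch.

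Each group was 1 culture and 1 library, so every difference below compares 2 libraries without a replicate check, and culture, library and treatment cannot be told apart. After filtering, 3135 of 3849 ZD7288 barcodes and 732 of 842 vehicle barcodes were kept, with 73681950 and 15611454 unique molecular identifiers (UMIs). The median was 23001 UMIs per ZD7288 cell and 17119 per vehicle cell, and the median mitochondrial share was 4.70% and 5.84%. The kept cells of both libraries shared 3 barcode sequences. Neural stem cell markers summed to 7487 CPM (counts per 1000000 UMIs) in ZD7288 cells and 7541 CPM in vehicle cells, mostly Vim and Fabp7. Within that list Slc1a3 was 1.58-fold higher (1.52 to 1.64) in ZD7288 cells, Hopx stood at 7.94 and 1.15 CPM, and Sox9 was lower. Markers of neurons summed to 187 and 171 CPM, mostly Gap43 and Map2. Of 3 measured neuron markers 2 were at least 1.5-fold higher. Tubb3 stood at 13.0 CPM in ZD7288 cells and 4.42 CPM in vehicle cells, a ratio of 2.94 (2.30 to 3.81). Gap43 had a ratio of 1.52 (1.43 to 1.63). Map2 ran the other way, just inside 1.5-fold, at 65.0 CPM in ZD7288 cells and 96.5 CPM in vehicle cells. Its ratio was 0.67 (0.64 to 0.71). The scarcer neuron markers Stmn2, Snap25 and Rbfox3, under 5 CPM, had ratios of 2.58, 2.61 and 2.07. The part of these markers in the results on Notch genes was not tested. The neurogenic factors Neurog1 and Neurog2 had 0 UMIs in either library. Endothelial markers summed to 28 UMIs in ZD7288 cells and 1 UMI in vehicle cells, with Kdr at 24 and 0 UMIs, Flt1 at 4 and 1, and Cldn5, Cdh5 and Tek at 0 in both. Oligodendrocyte precursor markers summed to 1234 CPM in ZD7288 cells and 2270 CPM in vehicle cells, mostly Olig1 and Olig2, although Pdgfra, the receptor that marks such precursors, had only 8 and 22 UMIs. The list of mesenchymal markers (pericytes, fibroblasts and related cells) summed to 16.3 CPM in ZD7288 cells and 0.705 CPM in vehicle cells. Tagln held 607 of 1204 UMIs in ZD7288 cells and 9 of 11 in vehicle cells, and Col1a1 held 199 and 2. The rest of the 9 genes of that list had UMIs in ZD7288 cells alone. None of the 9 reached a mean of 5 CPM.

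The promoters of Hes1, Hes5, Dll1 and Hes6 are shown first, because the motif bound by RBPJ is the point at which Notch signalling meets its targets. The sequences are RefSeq's, on assembly GRCr8, given 5′ to 3′ on the strand of the gene and covering 250 bases before the annotated start. All 9 genes had an entry. The build behind the deposited counts is not given in the sources used here. Capitals mark the core of the RBPJ motif, TGGGAA, or TTCCCA where it lies on the other strand.
Hes1: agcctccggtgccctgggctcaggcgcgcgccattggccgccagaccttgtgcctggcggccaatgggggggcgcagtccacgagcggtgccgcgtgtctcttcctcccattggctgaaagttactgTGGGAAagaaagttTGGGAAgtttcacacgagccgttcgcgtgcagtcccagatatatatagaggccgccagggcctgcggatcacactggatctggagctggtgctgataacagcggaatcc
Hes5: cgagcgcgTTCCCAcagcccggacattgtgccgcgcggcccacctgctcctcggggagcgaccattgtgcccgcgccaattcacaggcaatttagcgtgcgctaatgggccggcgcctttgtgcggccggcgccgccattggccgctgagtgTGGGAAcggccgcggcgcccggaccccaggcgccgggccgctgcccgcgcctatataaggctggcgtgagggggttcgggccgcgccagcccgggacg
Dll1: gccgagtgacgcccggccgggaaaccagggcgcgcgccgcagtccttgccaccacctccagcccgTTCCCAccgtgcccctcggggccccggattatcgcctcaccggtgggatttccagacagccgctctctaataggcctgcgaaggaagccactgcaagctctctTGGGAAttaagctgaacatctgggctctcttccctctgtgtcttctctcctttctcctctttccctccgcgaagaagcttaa
Hes6: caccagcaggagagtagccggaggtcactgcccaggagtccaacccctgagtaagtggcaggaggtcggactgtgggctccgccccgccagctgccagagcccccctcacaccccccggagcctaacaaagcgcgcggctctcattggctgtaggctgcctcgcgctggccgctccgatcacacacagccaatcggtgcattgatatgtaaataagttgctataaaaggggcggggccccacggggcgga

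These windows lie at chr11:84213046-84213295 (minus strand) for Hes1, chr5:170804327-170804576 (plus strand) for Hes5, chr1:64993275-64993524 (minus strand) for Dll1 and chr9:99451097-99451346 (minus strand) for Hes6. TGGGAA was searched on both strands from 250 bases before the start to 50 bases after it. In Hes1 the core began 123 and 109 bases before the start, both on the same strand as the gene. In Hes5 it began 242 bases before on the opposite strand and 98 bases before on the gene's strand, and in Dll1 at 185 and 82 bases before, again 1 on each strand. Notch3 held 1 core 42 bases after its start, and the windows of Notch1, Notch2, Dll3, Jag1 and Hes6 held none. Of 33469 promoters of this length, 25.7% held the core at least once and 3.85% at least 2 times. The longer form GTGGGAA, which contains the core, was in 6.29% of promoters; it occurred 2 times in Hes5 and once each in Hes1 and Dll1. A match is a description of letters and not a measured binding site.

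Of the 9 genes, 7 were measured, meaning a mean of at least 5 CPM over both libraries. Notch1, Notch2, Dll1, Dll3, Hes1 and Hes6 were at least 1.5-fold lower in the ZD7288 library, and Jag1 was at least 1.5-fold higher. Among all 7331 genes measured, 7.34% were lower by this rule and 10.0% were higher, and the rule also asks that the exact 95% interval of the ratio leaves out 1. The fold interval reached below 1.5 for Dll1, 1.60-fold lower (1.40 to 1.83), and for Hes6, 1.56-fold lower (1.48 to 1.65). The median log2 ratio of the 7 measured genes was -0.82, against 0.06 for all measured genes. Intervals here and below cover counting error only. Counts were summed over cells, so fewer cells that express a gene and less RNA per cell cannot be told apart from these sums.

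The receptors showed the lowest combined ratio. Their summed level was 40.7 CPM in ZD7288 cells and 86.7 CPM in vehicle cells, 2.13-fold lower (2.00 to 2.27). Notch1, the main receptor of cortical progenitors, had 1453 UMIs in the ZD7288 library and 739 in the vehicle library. That was 19.7 CPM (95% interval 18.7 to 20.8) against 47.3 CPM (44.0 to 50.9), so the intervals lay far apart. Notch2, a receptor with overlapping roles, stood at 20.9 CPM (19.9 to 22.0) in ZD7288 cells and 39.2 CPM (36.2 to 42.4) in vehicle cells, with 1543 and 612 UMIs. Notch3, best known from vascular smooth muscle, had 3 UMIs in the ZD7288 library and 2 in the vehicle library, too few for a ratio.

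The 3 ligands did not move together. Summed, they stood at 29.2 CPM in ZD7288 cells and 42.0 CPM in vehicle cells, 1.44-fold lower (1.32 to 1.57), but this sum joins opposite directions. Dll1, a Delta ligand that activates Notch on neighbouring cells, had 880 UMIs in the ZD7288 library and 299 in the vehicle library, at 11.9 CPM (11.2 to 12.8) and 19.2 CPM (17.0 to 21.5). Dll3, a divergent Delta protein that acts mostly inside the cell that makes it and does not activate neighbours, had 594 and 286 UMIs, at 8.06 CPM (7.43 to 8.74) in ZD7288 cells and 18.3 CPM (16.3 to 20.6) in vehicle cells. Jag1, a ligand of the Jagged class, ran the other way, with 676 UMIs and 9.17 CPM (8.50 to 9.89) in the ZD7288 library against 71 UMIs and 4.55 CPM (3.55 to 5.74) in the vehicle library.

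Among the HES genes, Hes6 held by far most of the UMIs. It had 5235 UMIs in the ZD7288 library and 1735 in the vehicle library, at 71.0 CPM (69.1 to 73.0) and 111 CPM (106 to 116), 1.56-fold lower (1.48 to 1.65). Its call ended when each cell counted the same: the mean of per-cell CPM gave a log2 ratio of -0.56, inside 1.5-fold, against -0.65 from the sums. Hes1, the repressor that keeps progenitors in the stem cell state, had 1063 and 398 UMIs, at 14.4 CPM (13.6 to 15.3) in ZD7288 cells and 25.5 CPM (23.1 to 28.1) in vehicle cells. Hes5, the other classical target in mouse cortex, had 3 UMIs in the ZD7288 library and 4 in the vehicle library. It was close to the limit of 3 counts, which stood at 0.0407 CPM in the ZD7288 library and 0.192 CPM in the vehicle library, so no direction is given.

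**Figure D1:**
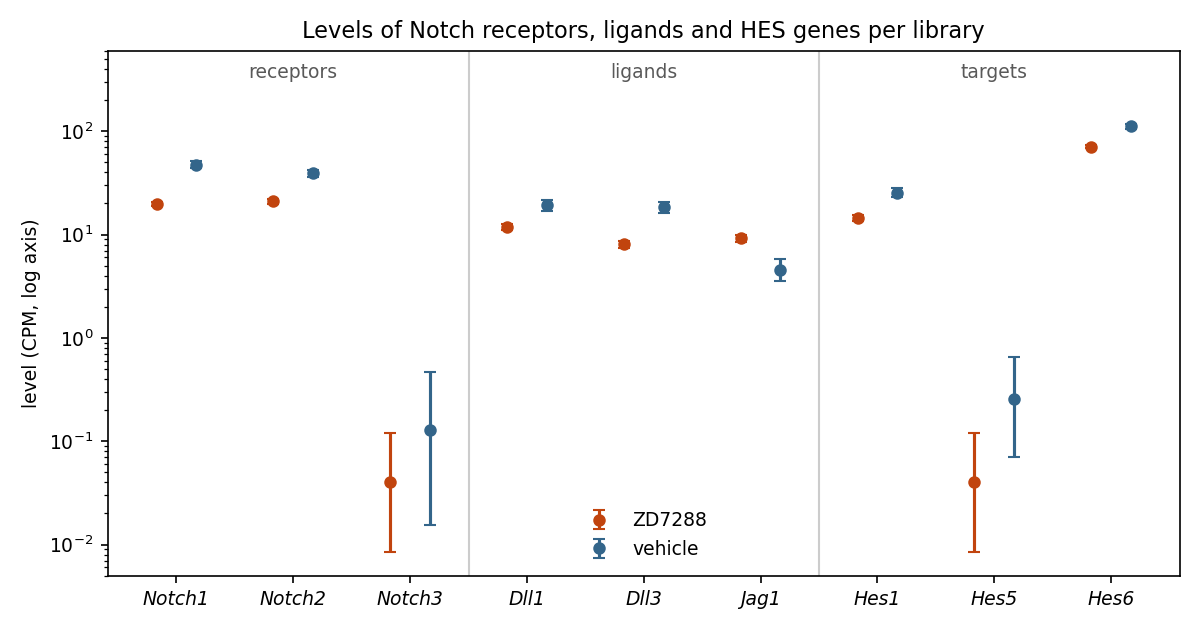
Level of each gene in the ZD7288 library (left point of each pair) and the vehicle library (right point), in CPM on a log axis, with exact Poisson 95% intervals and 1 library per group. Notch1, Notch2, Dll1, Dll3, Hes1 and Hes6 lie lower in ZD7288 cells, Jag1 lies higher, and Notch3 and Hes5 rest on 4 or fewer UMIs in each library.

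The order of the levels also differed between the libraries. These are UMI counts of transcript 3′ ends, so a longer transcript gives no more counts and levels can be ordered without a length correction, apart from differences in how well each end was captured and annotated. In the ZD7288 library the order was Hes6, Notch2, Notch1, Hes1, Dll1, Jag1, Dll3, then Notch3 and Hes5, and the intervals of Notch2 and Notch1, of Jag1 and Dll3, and of Notch3 and Hes5 overlapped. In the vehicle library it was Hes6, Notch1, Notch2, Hes1, Dll1, Dll3, Jag1, then Hes5 and Notch3, with overlap between Dll1 and Dll3 and between Hes5 and Notch3. Notch1 was thus above Notch2 only in vehicle cells, and Jag1 was clearly below Dll3 only there; neither change of order was tested.

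Shares of cells with a UMI were compared after each cell was thinned to 5000 UMIs, which left 2838 ZD7288 cells and 710 vehicle cells. The thinning left out 297 and 22 shallower cells. Intervals of the share lay apart, and lower in ZD7288 cells, for 5 of the 7 measured genes, against 10.6% of all measured genes. At a threshold of 2 UMIs per cell 2 of these remained, Notch1 and Hes6. They lay apart and higher for 0 of the 7, against 19.1%. Notch1 had a UMI in 9.23% (8.19 to 10.4) of ZD7288 cells and 16.8% (14.1 to 19.7) of vehicle cells, and Notch2 in 9.73% and 15.6%. Hes6 was the most widely detected, at 27.9% of ZD7288 cells and 39.9% of vehicle cells. Hes1 had a UMI in 6.34% and 10.8% of cells, and Dll3 in 4.62% and 8.45%.

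For Dll1 and Jag1 the shares overlapped at this depth. Dll1 was seen in 5.78% (4.95 to 6.70) of ZD7288 cells and 7.75% (5.89 to 9.96) of vehicle cells. Jag1 was seen in 4.65% (3.91 to 5.49) of ZD7288 cells and 2.68% (1.62 to 4.15) of vehicle cells, while its summed UMIs in the same thinned cells gave a ratio of 1.78 (1.11 to 2.996). At 10000 UMIs per cell the shares of Jag1 were higher in ZD7288 cells with intervals apart. Without thinning, Notch1 was in 31.5% and 48.6% of cells, Notch2 in 34.8% and 48.8%, Hes6 in 64.5% and 74.9%, Hes1 in 22.3% and 32.0%, Dll3 in 14.0% and 25.7%, Dll1 in 21.2% and 25.7%, and Jag1 in 15.7% of ZD7288 cells and 7.92% of vehicle cells. After thinning Notch3 was seen in 1 cell of each library. Hes5 was seen in 0 of 2838 ZD7288 cells and 0 of 710 vehicle cells, which allows shares with a UMI of up to 0.106% and 0.423% at this thinned depth. Without thinning it had a UMI in 3 of 3135 ZD7288 cells (0.0957%) and 4 of 732 vehicle cells (0.546%). Neither library held an identified cell type known to lack Notch genes, so these values have no share from free RNA alone to be set beside.

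**Figure D2:**
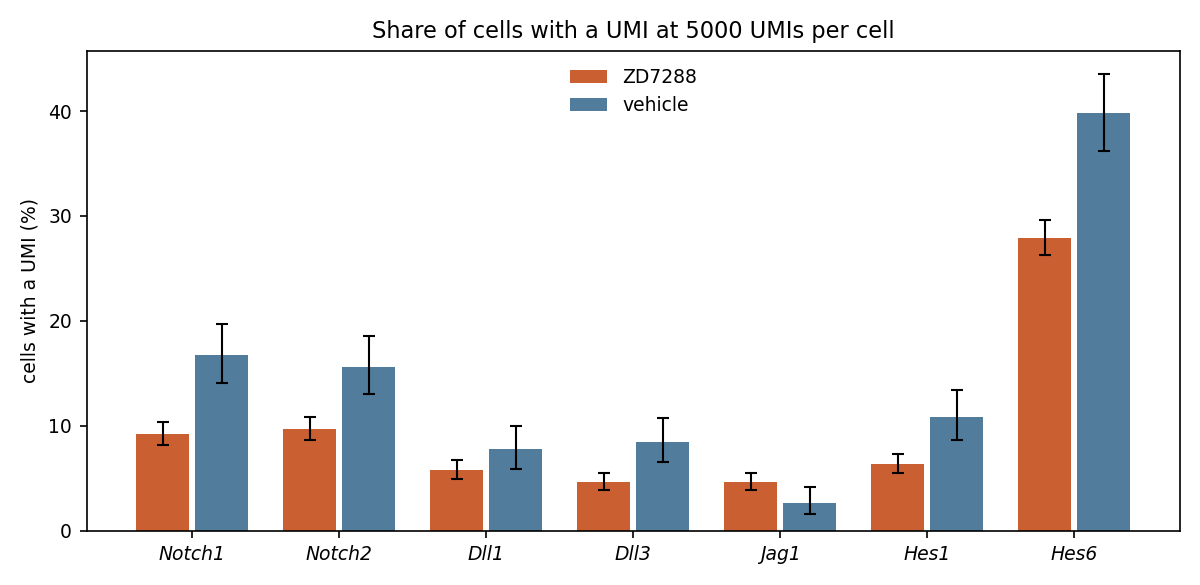
Share of cells with at least 1 UMI of each measured gene after thinning to 5000 UMIs per cell, in percent, with exact binomial 95% intervals. ZD7288 bars (left, 2838 cells) stand below vehicle bars (right, 710 cells) for 6 of 7 genes, with overlapping intervals for Dll1, and above for Jag1, also with overlap.

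A few cells held many UMIs of single genes. The highest count of Notch1 in 1 cell was 17 in the ZD7288 library and 23 in the vehicle library, and that of Hes6 was 25 and 46. The 1% of cells richest in Notch1 held 12.3% of its UMIs in the ZD7288 library and 11.5% in the vehicle library. For Jag1 these cells held 16.4% and 23.9%, and for Dll3 18.2% and 10.5%. The top 1% was 31 ZD7288 cells and only 7 vehicle cells, which held 17 of 71 Jag1 UMIs. In counts this sparse such a share also varies with the level of the gene, and its differences between the libraries were not tested.

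Other genes of the pathway were less one-sided than the 9 genes. Of 76 others written in lists by role, 74 were matched and 42 were measured. Of these 42, 2 were at least 1.5-fold higher, 5 were lower, and the median log2 ratio was -0.08. Among all measured genes 10.0% were higher and 7.34% lower. The counts by group below are to be read beside the same shares. Rbpj, which recruits the cleaved receptor to DNA and is named after its value was seen, stood at 11.8 CPM in ZD7288 cells and 12.2 CPM in vehicle cells, a ratio of 0.97 (0.83 to 1.14). Of 6 measured cleavage genes none passed 1.5-fold. Their most abundant members, the gamma-secretase subunit genes Aph1b and Psenen, stood at 78.8 and 75.3 CPM in ZD7288 cells against 77.9 and 76.7 CPM in vehicle cells.

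Among genes that act on ligands and receptors, 1 of 3 measured was higher. Mib2, a ubiquitin ligase that helps Delta ligands to be taken up and so to signal, stood at 49.1 CPM in ZD7288 cells against 12.8 CPM in vehicle cells, 3.83-fold higher (3.32 to 4.44). It had the largest ratio of the 42 measured genes and of the 7 measured core genes. Numbl, which relates to the Notch antagonist Numb, was the other higher gene and the 1 of 5 measured attenuators to pass, at 7.33 and 4.48 CPM, a ratio of 1.63 (1.27 to 2.13). Numb itself had only 24 UMIs in ZD7288 cells and 5 in vehicle cells.

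Lower genes were spread over 4 groups. When each cell counted the same, by the mean of per-cell CPM, only Sox9 and Olig2 of the 5 lower genes and Mib2 of the 2 higher ones stayed past 1.5-fold; Maml1, Spen, Tle2 and Numbl had log2 ratios of -0.53, -0.57, -0.55 and 0.55. In the nuclear complex 1 of 4 was lower, the coactivator gene Maml1, at 6.65 CPM in ZD7288 cells and 10.7 CPM in vehicle cells, 1.61-fold lower (1.34 to 1.92). Of 14 measured corepressor genes 2 were lower, the Groucho family gene Tle2 by 1.66-fold (1.45 to 1.90) and Spen, a partner of RBPJ in repression, by 1.54-fold (1.35 to 1.75). Of 6 other measured targets 1 was lower, Sox9, a transcription factor of radial glia, at 78.2 and 137.5 CPM, 1.76-fold lower (1.67 to 1.85). Nrarp, a direct target that dampens Notch and is named after its value was seen, had a ratio of 0.69 (0.65 to 0.73), just inside 1.5-fold.

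In the group listed as proneural, 1 of 2 measured genes was lower. This was Olig2, a factor of cortical and oligodendroglial progenitors, at 1.61-fold (1.57 to 1.66). Whether HES proteins repress it in these cells was not tested. Olig2 is also in the list of oligodendrocyte precursor markers, all 3 measured members of which were lower; the part of that list in the results on the core genes was not tested. The 2 measured noncanonical ligand genes, Dlk1 and Dner, did not pass, at ratios of 0.82 and 0.72, and Notch4 lay just under the floor at 4.41 and 4.93 CPM.

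**Figure D3:**
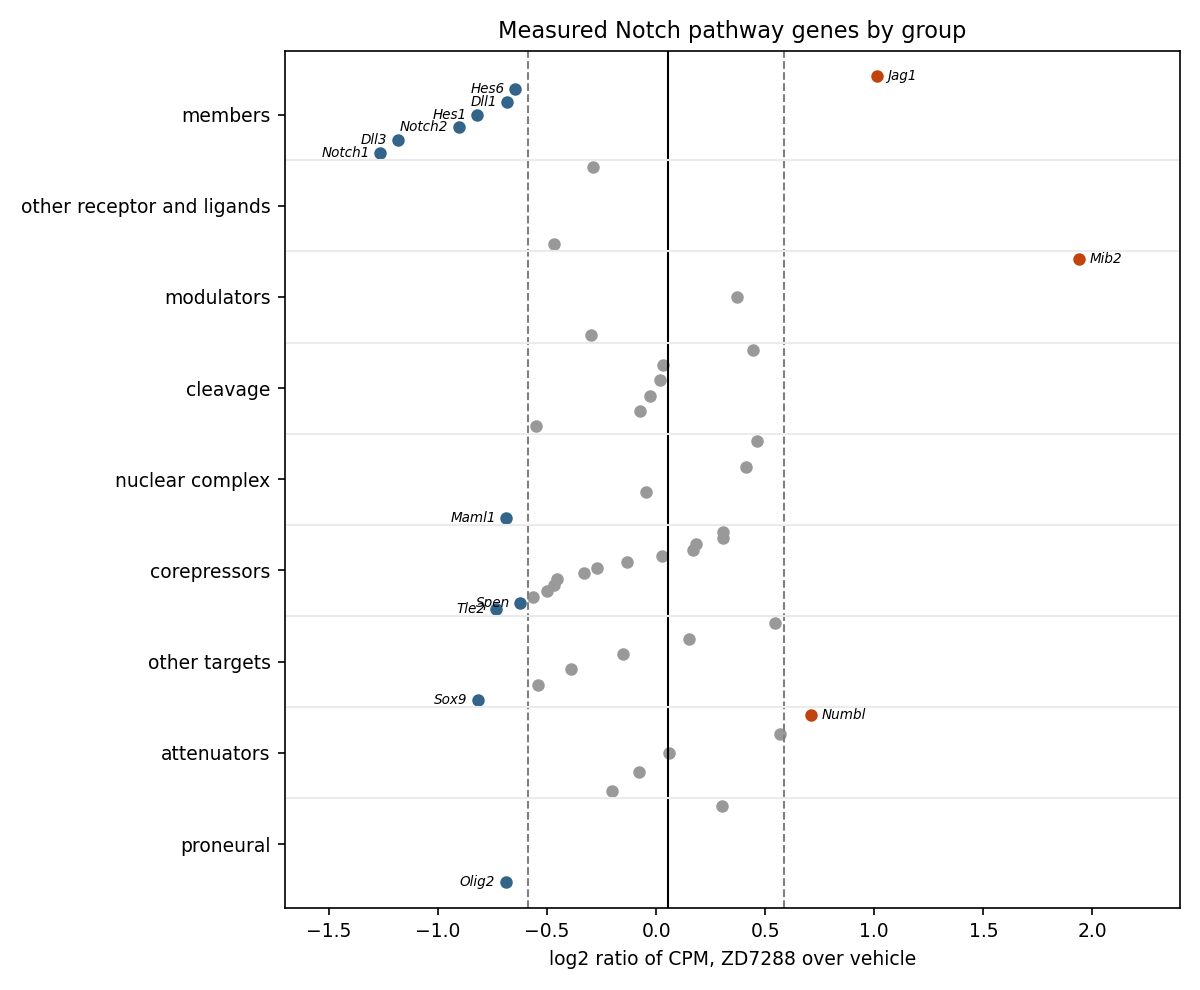
Log2 ratio of CPM, ZD7288 over vehicle, for each measured core gene (members, top) and each measured gene of 8 other pathway groups, 1 point per gene, coloured and named where at least 1.5-fold higher (orange) or lower (blue). Dashed lines mark 1.5-fold and the solid line the median of all measured genes at 0.06. Left of the dashed line lie 6 of 7 core genes and 5 of the 42 others. Of all measured genes, not drawn, 7.34% were lower by the same rule.

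The libraries differ in how their cells score for the cell cycle, so levels were also read in ranges of a cell cycle score. The score counts UMIs of S phase and G2/M genes after thinning to 5000 UMIs. Below 25 UMIs lay 22.4% of ZD7288 cells and 8.45% of vehicle cells, from 25 to 49 lay 38.3% and 49.3%, and from 50 lay 39.2% and 42.3%. The low range held only 60 vehicle cells, against 637 ZD7288 cells, and within 2 UMIs of the lower boundary lay 118 ZD7288 and 27 vehicle cells. A range of a score is not a cell type.

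The lower levels were present within each range. In the low range 6 of the 7 measured genes were at least 1.5-fold lower in ZD7288 cells (9.68% of all genes measured there), in the middle range 5 (7.91%) and in the high range 4 (6.68%). Notch1, Notch2 and Dll3 were lower in all 3. Notch1 stood at 15.1, 20.02 and 21.9 CPM in ZD7288 cells from the low to the high range, against 54.96, 45.8 and 48.0 CPM in vehicle cells. Dll3 stood at 6.04, 8.64 and 8.49 CPM in ZD7288 cells against 22.0, 15.3 and 21.1 CPM in vehicle cells. Dll1 and Hes1 passed in the low and middle ranges, and Hes6 in the low and high ranges.

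Jag1 passed as higher in the high range alone, at 8.87 CPM in ZD7288 cells against 3.24 CPM in vehicle cells, a ratio of 2.74 (1.77 to 4.44), where 8.08% of genes were higher. In the middle range its ratio was 1.46 (1.05 to 2.06), where 12.2% of genes were higher. In the low range it was 2.29 (0.96 to 7.16), resting on 5 vehicle UMIs, where 15.0% of genes were higher. The differences between ranges were not tested.

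By the 1.5-fold rule few of the genes differed between the low and the high range within each library. Of the 7 genes, none was at least 1.5-fold higher or lower in the low range than in the high range of ZD7288 cells. Of all genes, 3.45% were higher and 8.88% lower there. Smaller differences, with intervals that left out 1, were present for each of the 7. By size Notch1 came nearest, at a ratio of 0.69 (0.59 to 0.80). Hes6 had 0.71 (0.65 to 0.76), Dll3 0.71 (0.55 to 0.91), Dll1 0.75 (0.61 to 0.91) and Notch2 0.78 (0.67 to 0.90). Jag1 ran the other way, at 1.29 (1.06 to 1.57). The share of all genes with such intervals was not counted. In vehicle cells 1 of 6 measured genes passed, where 2.50% of genes were higher and 9.44% lower. This was Hes1, with 43.0 CPM (31.1 to 57.9) in the low range and 20.6 CPM (17.3 to 24.3) in the high range, a ratio of 2.08 (1.44 to 2.95). In ZD7288 cells Hes1 had 11.6 CPM in the low range and 15.1 CPM in the high range, a ratio of 0.77 (0.64 to 0.92). The difference between these ratios was not tested, and the vehicle low range holds 43 Hes1 UMIs.

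**Figure D4:**
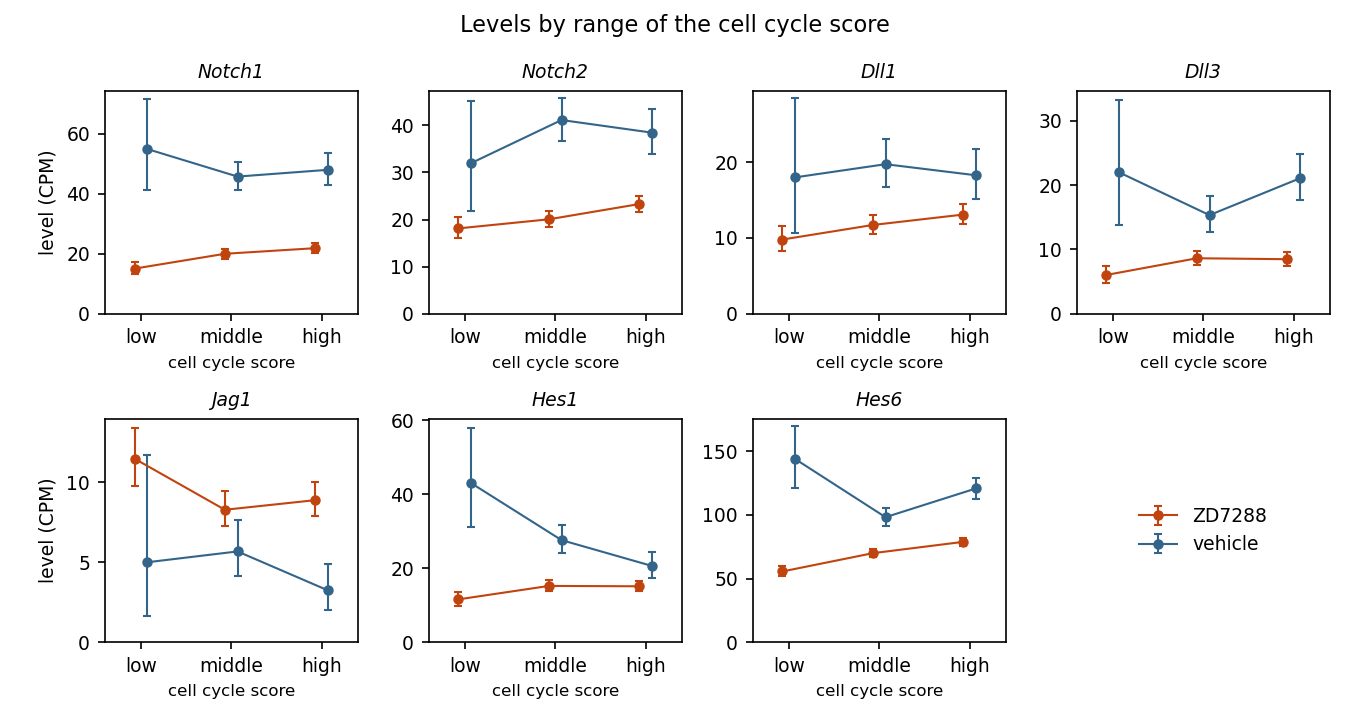
Level of each measured gene in CPM (axis from 0) in cells of low, middle and high cell cycle score, for ZD7288 cells (orange) and vehicle cells (blue), with exact Poisson 95% intervals over UMIs. Vehicle points lie above ZD7288 points in every range for all genes but Jag1, and Hes1 stands at 43.0, 27.6 and 20.6 CPM in vehicle cells from the low to the high range.

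Delta ligand and target genes are known to mark different neighbours in developing cortex, so cells with a Dll1 or Dll3 UMI at 5000 UMIs were set against cells with none. They made up 9.87% (8.79 to 11.0) of ZD7288 cells and 15.2% (12.6 to 18.1) of vehicle cells. Within the ZD7288 library 1 of 5 measured genes was at least 1.5-fold higher in ligand cells (0.562% of all genes) and 0 were lower (0.233%). This was Hes6, at 105 CPM (97.0 to 113) in ligand cells and 67.6 CPM (65.6 to 69.6) in the others, a ratio of 1.55 (1.43 to 1.68). Within the vehicle library 0 of 4 measured genes were higher (1.61%) or lower (0.696%), and Hes6 stood at 129 and 108 CPM, a ratio of 1.19 (1.04 to 1.35).

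Hes1 did not pass 1.5-fold between these cells. Its ratio was 0.91 (0.72 to 1.13) in the ZD7288 library and 0.80 (0.58 to 1.10) in the vehicle library, and both intervals included 1. They rest on 88 and 46 Hes1 UMIs in ligand cells and are too wide to show equal levels. Notch1 stood at 25.1 CPM in ligand cells and 19.3 CPM in the others of the ZD7288 library, a ratio of 1.30 (1.10 to 1.53), and at 51.9 and 46.6 CPM in the vehicle library. Within ligand cells alone Notch1 was 2.07-fold lower (1.61 to 2.64) in ZD7288 than in vehicle cells. A cell with no UMI at this depth may still express a ligand.

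ZD7288 cells were next compared with each other along a list of 35 genes of the ATF4 amino acid and stress response, which is higher in this library than in vehicle cells. At 5000 UMIs per cell the list had a median of 22, 35 and 47 UMIs in groups of 946 cells with the fewest, intermediate and most list UMIs, and of 9 UMIs in vehicle cells. Of the 7 genes 3 were at least 1.5-fold lower in cells with the most list UMIs than in cells with the fewest, and 0 were higher, where 1.44% of all genes were lower and 2.44% higher. These were Notch1, Notch2 and Hes6. Notch1 had 14.55 CPM (13.1 to 16.2) in cells with the most list UMIs and 26.6 CPM (24.6 to 28.7) in cells with the fewest, 1.83-fold lower (1.60 to 2.09).

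Notch2 stood at 16.4 CPM in cells with the most list UMIs and 25.8 CPM in cells with the fewest, 1.58-fold lower (1.39 to 1.79). Hes6 stood at 56.1 and 92.2 CPM, 1.64-fold lower (1.53 to 1.76). Hes1 had a ratio of 0.72 (0.62 to 0.84), Dll1 of 0.80 (0.68 to 0.95), Dll3 of 0.87 (0.72 to 1.06) and Jag1 of 1.25 (1.03 to 1.51), none past 1.5-fold. At 2000 UMIs per cell 2 genes passed. The medians of the cell cycle score in the groups were 44, 43 and 45 UMIs, and the median mitochondrial share was 5.47%, 4.73% and 4.26% from the fewest to the most list UMIs; the part of the latter in these differences was not tested.

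Cells with the fewest list UMIs also differed from vehicle cells, to which they were not matched (medians of 22 and 9 list UMIs). Of the 7 genes 4 were at least 1.5-fold lower there (5.41% of all genes), against 6 in the middle group (8.49%) and 6 in the group with the most (9.24%). Notch1 was 1.78-fold lower (1.60 to 1.98), 2.61-fold lower (2.31 to 2.94) and 3.25-fold lower (2.86 to 3.71) than in vehicle cells across the 3 groups. Hes6 was 1.20-fold lower (1.13 to 1.28) in the first group and 1.98-fold lower (1.84 to 2.13) in the last. Jag1 was higher than in vehicle cells in all 3, at 8.04, 9.45 and 10.0 CPM against 4.57 CPM. These comparisons share the vehicle cells. The share of all genes that were higher was not counted by group. Over all kept cells it was 10.0%.

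**Figure D5:**
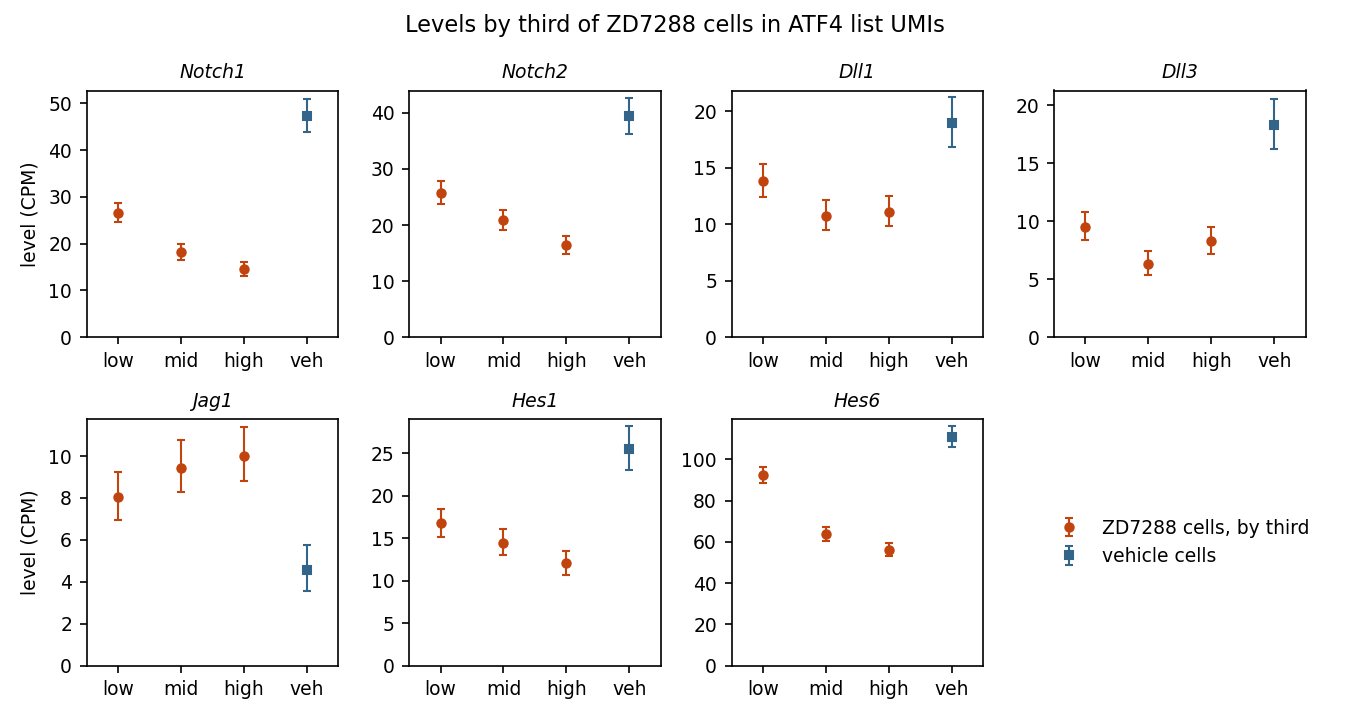
Level of each measured gene in CPM (axis from 0) in ZD7288 cells split into groups of 946 with the fewest (low), intermediate (mid) and most (high) ATF4 list UMIs, and in vehicle cells (veh), with exact Poisson 95% intervals over UMIs. Notch1 lies at 26.6, 18.2 and 14.55 CPM in the ZD7288 groups and 47.3 CPM in vehicle cells.

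Jag1 moved with the mesenchymal markers between the libraries and was therefore also read without cells that had a UMI of that list. ZD7288 cells with such a UMI numbered 338 of 3135 and had 11.7 CPM of Jag1, against 8.81 CPM in the other ZD7288 cells, a ratio of 1.32 (1.07 to 1.63). Without such cells in either library Jag1 was 1.93-fold higher (1.502 to 2.51), with 8.81 CPM in ZD7288 cells and 4.57 CPM in vehicle cells. All 6 lower genes stayed at least 1.5-fold lower without these cells, Notch1 at 2.41-fold (2.20 to 2.65) and Hes6 at 1.55-fold (1.47 to 1.64). A cell with no UMI of that list may still be of those cell types, and their part in the results was not tested. This reading was chosen after the data were seen. The share of all genes that were lower was not counted without the cells that had such a UMI. Over all kept cells it was 7.34%.

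Across single cells no gene followed any of the 7 measured core genes closely; Notch3 and Hes5 were too sparse to be included. By the rule used, a gene was named as most like a member if Pearson's r over cells, on log counts at 5000 UMIs, reached 0.15 in both libraries, and none did. The nearest was Olig1, a factor of the oligodendrocyte lineage, with Hes6, at r of 0.161 over 2838 ZD7288 cells and 0.147 over 710 vehicle cells. Among the 21 pairs of measured core genes r lay between -0.08 and 0.12. Cells share their library and depth, and such weak values in sparse counts are not a finding.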

How the data were processed

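The deposited matrix holds raw UMI counts per gene and barcode, not normalised; Cell Ranger produced them per the submitters' processing notes (software version 3.0.2 per the file headers). The sources used here do not give the genome build, the annotation or the barcode rule. Libraries were told apart by barcode suffix, which was read as the number that opens each sample title (1 vehicle, 2 ZD7288); every direction rests on this match. Cells with at least 1000 UMIs, 500 genes and at most 10% mitochondrially encoded UMIs were kept. Counts were summed per library and scaled to CPM, with exact 95% intervals (Poisson for levels, Clopper-Pearson for shares and ratios). A gene was called past 1.5-fold where its mean was at least 5 CPM and the interval left out 1. With 1 library per group no p-value is given. Shares and scores used cells thinned to 5000 UMIs. Likely doublets, 79 and 4 cells marked against simulated ones, stayed in. The 9 genes, the lists and the alternatives were chosen with earlier results of these data known. In each pathway group up to 4 genes past 1.5-fold with the largest log2 ratio were named, or the 2 with the highest CPM. Of 275 listed symbols 265 were matched, through a reference table of GRCr8 where symbols had changed. Python 3.11.15, numpy 2.4.6, scipy 1.17.1, scikit-learn 1.9.0 and R 4.3.3 were used, with edgeR 4.0.16 for scaling factors alone. The code was tested on simulated data. Alternatives covered scaling, cell filter, weight and depth of cells, doublets, floor, size rule, thinned depth and score boundaries. The value of 1 gene of the pathway lists is not reported here.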

Additional observations from a re-analysis of the deposited data

How the results depend on the processing

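Of 89 alternative values of the log2 ratios of the 9 genes, 85 stayed within their interval, 4 moved and 0 changed sign. Thinning to 5000 UMIs gave -0.93 for Notch1, -0.73 for Notch2 and -0.90 for Dll3, and the mean of per-cell CPM gave -0.56 for Hes6. The count of core genes was 1 higher and 6 lower under either other scaling, each cell filter, thinning, removal of doublets and, chosen after the data were seen, removal of cells with a mesenchymal marker UMI or under 2% mitochondrially encoded UMIs. It was 5 lower under the per-cell mean. At a mean of at least 20 CPM it was 0 higher and 3 lower, since fewer genes are tested, and at 2-fold 2 were lower. Without a floor 7 were lower, with Hes5 added on 3 and 4 UMIs. Among the other pathway genes, 8 were lower under scaling by the median of gene ratios, 1 was higher and 2 were lower under the per-cell mean, 1 and 2 at 20 CPM, and 1 and 0 at 2-fold. The cause of the shift under the per-cell mean was not tested. Over all genes, 733 higher and 538 lower became 609 and 654 under the median of gene ratios, which shifts log2 ratios by 0.06, 420 and 190 at 20 CPM, 1213 and 1272 without a floor, and 217 and 141 at 2-fold. For shares, 4 core genes were lower with intervals apart at 2000 UMIs per cell, and 2 at a threshold of 2 UMIs. At 10000 UMIs per cell 5 were lower and 1 was higher. Counts in ranges of the cell cycle score, in ligand cells and along the ATF4 list stayed within 1.5 times. The smaller vehicle library sets the width of most intervals. In barcodes left out by the cell filter, 714 and 110, Dll3 alone was called by the 1.5-fold rule, at a ratio of 0.52 (0.33 to 0.85). Notch1 had a ratio of 0.83 (0.45 to 1.69) on 12 vehicle UMIs and Notch2 of 0.84 (0.53 to 1.39). Dll1 had 0.69 (0.40 to 1.24), and Hes1 0.75 (0.28 to 2.51) on 5 vehicle UMIs. Jag1 had 0.62 (0.27 to 1.69) and Hes6 1.17 (0.78 to 1.84). No paired analysis was possible because each group has 1 library.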
